A study of Mus musculus with 5 samples.

Results

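Solute carriers are membrane proteins that move sugars, ions, metals, amino acids, nucleosides and other small molecules across membranes, and mouse genes for them carry symbols that start with Slc. The group described here holds the lens-expressed carriers outside the mitochondrial family (Slc25a) and the main amino acid and iron families. The rule took symbols that start with Slc, left out Slc25a, Slc7a, Slc38a, Slc1a and Slc11a as well as Slc3a2, Slc39a14, Slc40a1 and Slc17a5, and asked for a mean count of at least 50 in the cKO or in the Ctrl libraries. Of the 22183 genes in the table, 303 had a matching symbol, and 104 of these reached the threshold. No test result entered the rule, but the threshold used the level in each group. It was met in both groups by 78 carriers, by 11 only in cKO lenses and by 15 only in Ctrl lenses. Just inside were Slc43a3 (mean count 51 in cKO and 10.67 in Ctrl) and Slc27a4 (46 and 51.33). Just outside were Slc4a3 (48 in cKO and 31.67 in Ctrl) and Slc29a3 (37.5 and 46.33).

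The lens has no blood vessels after development, so its cells depend on carriers for glucose, antioxidants, amino acids and ions taken up from the ocular fluids. Mature fibre cells lose their organelles and live mainly on glycolysis. The glucose carrier GLUT1, monocarboxylate carriers that move lactate with protons, and chloride cotransporters that set cell volume are well-known members of this system, and taurine and myo-inositol are osmolytes of the lens.

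RNA was sequenced from whole lenses of mice at P14 (age 14 days) in 5 libraries, each a pool of 4 to 6 lenses. The conditional knockout group (cKO, 2 libraries) came from Yap1 f/f;Cre or Yap1 f/+;Cre animals, which carry floxed Yap1 on both chromosomes or on 1 together with a Cre transgene. Yap1 encodes a co-activator that the Hippo pathway restrains. Lenses entered this group by their severe phenotype (microphthalmia with closure of the pupillary membrane), not by genotype. The promoter that drives Cre is not stated in the labels. The control group (Ctrl, 3 libraries) came from littermates with floxed alleles (Yap1 f/f or Yap1 f/+) and no abnormality, although their genotype field reads WT. The pools are the replicates in every test below.

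The libraries held 22047553 to 25762805 counts each. Yap1 itself had 92 and 61 counts in cKO 1 and 2, against 155, 133 and 143 in Ctrl 1, 2 and 3, and its log2 fold change of −1.08 (SE 0.33) missed the threshold (edgeR adjusted p = 0.0759). Both cKO libraries had at least 1 count for fewer genes (12602 and 12028) than the Ctrl libraries (13972 to 14199). The Y-linked gene Ddx3y had 0 counts in both cKO libraries and 656 to 854 in Ctrl, so sex and genotype cannot be told apart. The lens fibre marker list, led by crystallins, summed to 317837 and 282041 CPM (counts relative to the TMM-scaled library size) in cKO and 261518 to 299518 CPM in Ctrl, but Lgsn and Bfsp1 were lower among its 9 genes (log2 −4.20 and −1.34, edgeR adjusted p = 0.0188 and 0.0227). The epithelial list summed to 934 and 1906 CPM in cKO and 1470 to 1645 CPM in Ctrl, most of it Dkk3. Its other 5 genes summed to 27.4 and 20.97 CPM in the cKO pools and to 150.1 to 213 CPM in the Ctrl pools, and 4 of them were lower (Cdh1, Pax6, Gja1 and Npnt). Macrophage markers summed to 312 and 52.8 CPM in cKO 1 and 2, against 2.11 to 3.94 CPM in Ctrl, and 8 of the 9 tested were higher. The part of these lists in the results below was not tested. In whole lenses, fewer cells of a type and less RNA per cell cannot be told apart.

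Read as FPKM, which is scaled to gene length by the authors and so allows levels of different genes to be compared, the most abundant carrier was Slc2a1 (ENSMUSG00000028645), the gene of GLUT1. It stood at 39.9 and 69.7 FPKM in cKO 1 and 2, against 110.1, 72.4 and 84.2 FPKM in Ctrl 1, 2 and 3. By mean FPKM it ranked 698 among all genes in cKO and 312 in Ctrl. Next in Ctrl lenses by FPKM came the copper importer gene Slc31a1 (24.9 ± 7.61 FPKM in cKO and 33.6 ± 4.80 in Ctrl, SD, n = 2 and 3) and the phosphate carrier gene Slc20a2 (19.7 ± 3.49 and 32.2 ± 5.39). They were followed by Slc24a4, which encodes a potassium-dependent sodium-calcium exchanger (31.6 ± 9.50 FPKM in cKO and 27.5 ± 4.18 in Ctrl), and by the zinc carrier gene Slc39a13 (32.6 ± 15.99 and 21.4 ± 2.29). In Ctrl lenses every pool of Slc2a1 lay above all pools of the next 4 genes, while each of these 4 overlapped with its neighbour in that order. In cKO lenses, the taurine carrier gene Slc6a6 came after Slc2a1 by mean FPKM, at 30.1 and 67.8 FPKM, against 10.4 to 10.97 FPKM in Ctrl, and its pools overlapped with those of Slc2a1. All 104 genes together summed to 506 and 699 FPKM in cKO 1 and 2 and to 507 to 556 FPKM in Ctrl.

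**Figure D1:**
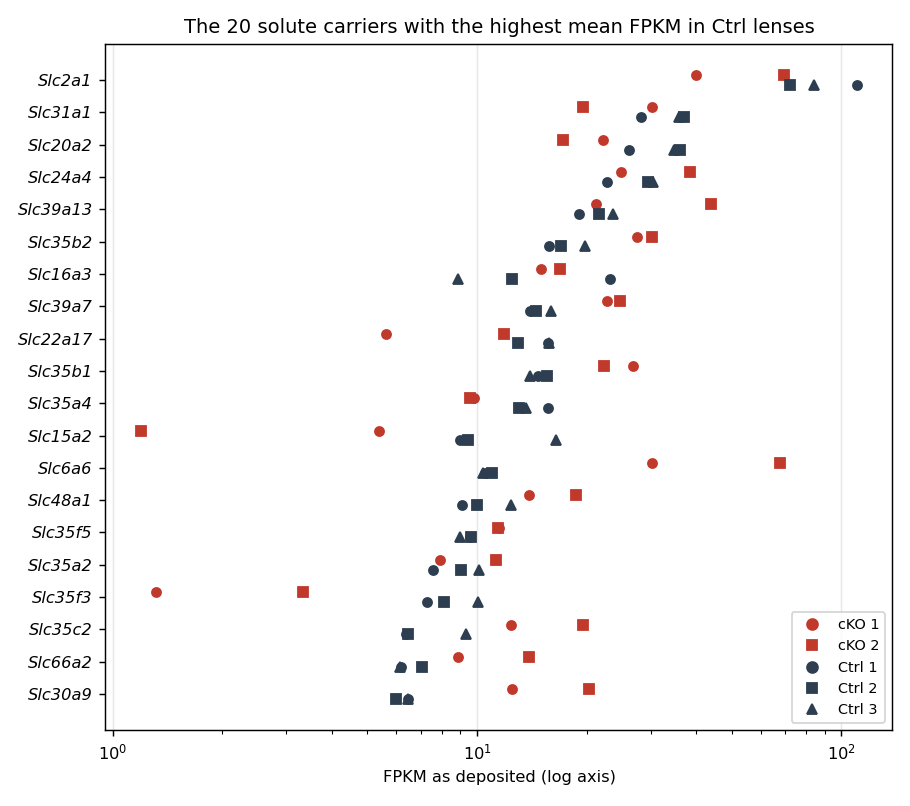
Deposited FPKM (log axis) of the 20 carriers with the highest mean in Ctrl lenses, one symbol per pooled library, red for cKO and dark blue for Ctrl. Slc2a1 is at the top with 110.1 FPKM in Ctrl 1, Slc6a6 lies to the right in both cKO pools (30.1 and 67.8 FPKM), and Slc35f3 and Slc15a2 lie to the left in both.

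Counts were compared between cKO and Ctrl by edgeR's quasi-likelihood test over all 11724 genes that passed a filter on low counts, which all 104 carriers did. At an adjusted p under 0.05, 10 carriers were higher and 10 were lower in cKO, 9.62% each. Of all tested genes, 5.76% were higher and 7.73% were lower. In either direction 19.2% of the carriers were called, against a background of 13.5%. These sets are unlike, since each carrier had a mean count of at least 50 in a group, while the filter on all genes asked for less. Of the 78 carriers that reached the threshold in both groups, 9 were higher and 4 were lower, 16.7% in all. Only this sum is close to that background, since more of the 78 were higher than lower, the reverse of all tested genes. Of the 15 that reached it only in Ctrl lenses 6 were lower (Slc6a15, Slc18a2, Slc24a3, Slc29a1, Slc35f1 and Slc22a23), and of the 11 that reached it only in cKO lenses 1 was higher (Slc24a2), but the rule had put these on that side. The median log2 fold change was 0.07 for the carriers (0.12 over the 78) and −0.06 for all tested genes. In 26 carriers (25%) both cKO pools lay above every Ctrl pool, against 22.8% of tested genes, and in 31 (29.8%) both lay below, against 28.7%. Neither share stands far from its background.

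In all 20 called carriers the groups did not overlap, and none changed sign under any of 13 alternative settings. These genes were picked by a test on the same libraries, so neither point adds support. The calls rest on all 3 Ctrl libraries. Without Ctrl 1, 2 or 3, edgeR called 0 carriers, the adjusted p-values of the 20 ran from 0.0815 (Slc6a6, without Ctrl 1) to 0.18 (Slc5a3, without Ctrl 2), and at an unadjusted p under 0.05 there remained 15 to 17 carriers with a positive and 15 to 17 with a negative change. The called genes of the partner lists given with each class were lost in the same way. Without cKO 1 edgeR called 29 higher and 30 lower carriers, and without cKO 2 it called 20 and 27, fits that take the spread of the 1 remaining cKO pool to be that of the Ctrl pools. Scaling by total counts in place of TMM raised the median of all tested genes to 0.16 and that of the carriers to 0.29 on the log2 scale, and turned the split of calls to 15 higher and 9 lower (10 and 10 with TMM). On log2(FPKM + 1), tested with limma, the calls of Slc16a1, Slc9a8, Slc35f1, Slc22a23 and Slc5a3 were lost (adjusted p = 0.058, 0.086, 0.0576, 0.0658 and 0.0648), a scale that understates changes of low genes.

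**Figure D2:**
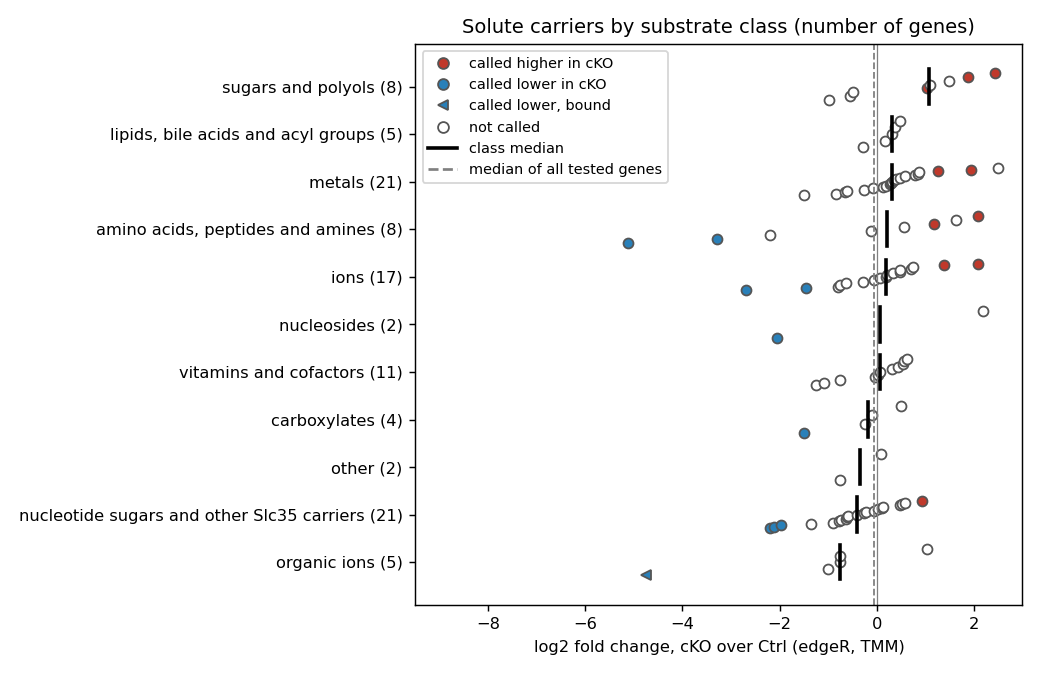
Log2 fold change (cKO over Ctrl) of the 104 carriers, 1 point per gene, by substrate class with the number of genes in parentheses. Red points were called higher and blue points lower, black bars mark class medians and the dashed line marks the median of all tested genes. Slc22a23 had 0 counts in both cKO libraries and is a triangle at its bound. Class medians include genes that reached the count threshold in 1 group only, and run between −0.77 for organic ions and 1.07 for sugars and polyols.

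Class and partner list counts here and below stand beside 5.76% higher and 7.73% lower among all tested genes. No class or list was tested as a set. Of the 8 carriers of sugars and polyols 3 rose and none fell. The class median of 1.07 on the log2 scale rests in part on Slc2a12 and Slc5a10, which reached the count threshold only in cKO lenses, and over the other 6 genes it was 0.28 with 3 positive and 3 negative values. The most abundant member of the class had a negative change. Slc2a1 had 114 and 169 CPM in cKO 1 and 2, against 357, 229.9 and 247 CPM in Ctrl 1, 2 and 3. Both cKO pools lay below every Ctrl pool, but the log2 fold change of −0.97 (SE 0.27) did not pass (edgeR adjusted p = 0.0628), while DESeq2, another count test, called it (−0.95, adjusted p = 0.00359). Without cKO 2 edgeR called it too (−1.29, adjusted p = 0.00608), but not without cKO 1 (−0.73, adjusted p = 0.052). Slc2a1 took 8.46 and 10.8% of the counts of the 104 genes in cKO, against 15.3 to 22.9% in Ctrl. Slc37a4, the glucose-6-phosphate carrier of the endoplasmic reticulum, also lay below in both cKO pools without passing (log2 fold change −0.54, edgeR adjusted p = 0.214).

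The 3 sugar and polyol carriers that rose were Slc2a8, Slc50a1 and Slc5a3. Slc2a8 encodes GLUT8, a glucose transporter of internal membranes. Its level was 15.6 and 36.9 CPM in cKO, against 6.68, 7.71 and 6.91 CPM in Ctrl, 3.70-fold higher (log2 1.89, SE 0.35, edgeR adjusted p = 0.026). The cKO pools were over 2-fold apart, and the log2 fold change was 2.36 without cKO 1 and 1.14 without cKO 2. Slc50a1 encodes the sugar carrier SWEET1. It was at 9.39 and 10.1 CPM in cKO, with close pools, against 4.36, 4.39 and 5.37 CPM in Ctrl (log2 1.04, SE 0.22, edgeR adjusted p = 0.0339).

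Slc5a3 encodes SMIT1, which takes up myo-inositol together with sodium. It measured 20.8 and 5.14 CPM in cKO 1 and 2, against 3.20, 2.39 and 1.61 CPM in Ctrl (log2 fold change 2.44, SE 0.60, edgeR adjusted p = 0.0484). cKO 1 stood 4.05-fold above cKO 2, and without cKO 1 the log2 fold change was 1.09 and the call was lost (edgeR adjusted p = 0.0509), while without cKO 2 it was 3.13. The gene overlaps Mrps6 in the annotation, and some of its counts were fractional, so its reads cannot be fully told apart from those of Mrps6 (1822 and 1236 counts in cKO, against 783 to 916 in Ctrl). Of 12 genes of glucose use and the polyol pathway, 1 rose and 1 fell. Insr, the insulin receptor gene, rose (log2 fold change 1.39, SE 0.30, edgeR adjusted p = 0.0342). Akr1b3, which encodes the aldose reductase that makes sorbitol out of glucose, fell to 15.8 and 13.7 CPM in cKO, against 42.4, 34.3 and 37.7 CPM in Ctrl (log2 −1.37, SE 0.17, edgeR adjusted p = 0.011). Sord, the next enzyme of that pathway (0.50, adjusted p = 0.0857), and G6pdx, the entry enzyme of the pentose phosphate pathway (−0.59, adjusted p = 0.0592), did not pass edgeR's test.

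Of 17 ion carriers 2 were higher and 2 lower, with a median log2 fold change of 0.19. Of the 13 that reached the count threshold in both groups, 1 was higher and 1 lower. Slc12a2 encodes NKCC1, which brings sodium, potassium and chloride into cells and raises their volume. It was at 12.6 and 18.5 CPM in cKO, against 5.66, 6.83 and 5.37 CPM in Ctrl, 2.61-fold higher (log2 1.39, SE 0.24, edgeR adjusted p = 0.0227). The potassium-chloride cotransporter gene Slc12a4, whose product carries these ions out, missed the threshold at a log2 fold change of −0.63 (edgeR adjusted p = 0.259).

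Of 18 regulators of ion carriers on a list of kinases, carbonic anhydrases and adaptors, 13 could be tested, 1 rose and 2 fell. Stk39 encodes SPAK, the kinase that activates NKCC1 by phosphorylation. It rose to 157 and 134 CPM in cKO, against 61.98, 64.7 and 60.6 CPM in Ctrl (log2 fold change 1.22, SE 0.13, edgeR adjusted p = 0.008). Wnk2, a member of the WNK kinases that act above SPAK, fell to 6 and 11 counts in cKO, against 123, 112 and 112 counts in Ctrl (log2 fold change −3.95, SE 0.43, edgeR adjusted p = 0.00756). Slc12a2 and Stk39 were thus higher in both cKO pools, and Wnk2 was lower in both. Among the other tested kinase genes of the list, Wnk1, Wnk3 and Oxsr1 had positive log2 fold changes (0.27, 0.96 and 0.61). Sgk1 had a negative one (−1.65). None of them was called (edgeR adjusted p = 0.48, 0.379, 0.239 and 0.49). Car14, a carbonic anhydrase gene with partly fractional counts, fell to 10.4 and 3.54 CPM in cKO, against 58.3, 57.6 and 89.4 CPM in Ctrl (log2 fold change −3.30, SE 0.51, edgeR adjusted p = 0.017). Car2 had 255 and 31.5 CPM in cKO, against 22.7, 22.2 and 20.1 CPM in Ctrl, and was not called (log2 fold change 2.73, edgeR adjusted p = 0.0593).

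Of 3 calcium exchanger genes of the Slc24 family, 1 was called lower and 1 higher. The lower one, Slc24a3, reached the count threshold only in Ctrl lenses. Slc24a3 (NCKX3) had 15 and 7 counts in cKO, against 53, 69 and 69 counts in Ctrl (log2 fold change −2.69, SE 0.56, edgeR adjusted p = 0.0319; −3.42 without cKO 1 and −2.19 without cKO 2). Slc24a2 (NCKX2), known from neurons and cone photoreceptors, was higher at 6.98 and 6.89 CPM in cKO, against 2.37, 1.76 and 0.768 CPM in Ctrl (log2 2.09, SE 0.47, edgeR adjusted p = 0.039). It reached the count threshold only in cKO lenses, and its Ctrl pools were 3.08-fold apart. Retinal neuron markers summed to 64.04 and 56.6 CPM in cKO, against 54.05, 18.3 and 7.45 CPM in Ctrl, with Syt1 and Slc17a7 at 0 counts in both cKO libraries. Most of that sum in cKO was Cabp5 (55.01 and 54.9 CPM in cKO 1 and 2), the one gene of the list that was called. The part of these markers in the Slc24a2 result was not tested. The abundant Slc24a4 was at 70.7 and 93.6 CPM in cKO, overlapping its 69.96 to 86.9 CPM in Ctrl (log2 fold change 0.06, edgeR adjusted p = 0.852).

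Slc9a8 encodes NHE8, a sodium-proton exchanger of the Golgi and the cell surface. It fell to 3.47 and 3.65 CPM in cKO, against 7.52, 12.2 and 9.56 CPM in Ctrl (log2 fold change −1.45, SE 0.28, edgeR adjusted p = 0.0283). The phosphate carrier gene Slc20a2 was below Ctrl in both cKO pools (log2 −0.80, SE 0.24) and missed the threshold (edgeR adjusted p = 0.0787; DESeq2, which called it, 0.0196), and its paralog Slc20a1 was above in both (0.75, SE 0.29, adjusted p = 0.135). The bicarbonate and anion exchanger genes Slc4a4, Slc4a7 and Slc4a2 had log2 fold changes of 0.22, 0.33 and −0.27, with edgeR adjusted p = 0.689, 0.825 and 0.781. For each of them the mean deposited FPKM went the other way by value. In the same order it was 0.533, 0.4845 and 1.43 in cKO and 0.659, 0.495 and 1.18 in Ctrl.

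Of 21 metal carriers 2 rose and none fell. Of the 19 that reached the count threshold in both groups, 13 had a positive log2 fold change (median 0.30). Over all 78 such carriers 45 were positive (median 0.12), and the median of all tested genes was −0.06. Signs of small changes depend on the scaling, since total-count scaling raised that last median to 0.16. Slc31a2 encodes CTR2, a relative of the copper importer CTR1 that sits in endosomes and lysosomes. It was at 15.9 and 19.9 CPM in cKO, against 7.79, 6.10 and 8.52 CPM in Ctrl, 2.39-fold higher (log2 1.26, SE 0.22, edgeR adjusted p = 0.0223). Slc31a1, the CTR1 gene, had 112 and 61.2 CPM in cKO, against 118, 148 and 132 CPM in Ctrl, and was not called (log2 −0.61, edgeR adjusted p = 0.179). Slc41a3, a member of a magnesium carrier family, was 3.82-fold higher, at 10.8 and 16.8 CPM in cKO, against 3.53, 4.05 and 3.22 CPM in Ctrl (log2 1.94, SE 0.27, edgeR adjusted p = 0.0137). Its relative Slc41a1 had 1.10 and 3.02 CPM in cKO, against 8.03, 6.05 and 3.46 CPM in Ctrl and was not called (log2 −1.50, edgeR adjusted p = 0.128).

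The metal class includes the zinc carriers. The Slc30 genes export zinc out of the cytosol or into vesicles, and 4 of the 5 that reached the threshold in both groups had a positive log2 fold change (median 0.78). The Slc39 genes import it into the cytosol, and 5 of 8 were positive (median 0.20). edgeR called 0 of the 7 Slc30 and 0 of the 8 Slc39 genes. At an unadjusted p under 0.05 it gave 2 higher and 0 lower among the Slc30 genes and 1 higher and 1 lower among the Slc39 genes, and DESeq2 called 2 and 1 higher and none lower. Nearest to the threshold was Slc39a7, which releases zinc out of the endoplasmic reticulum, at 51.5 and 48.01 CPM in cKO, against 35.4, 36.1 and 35.6 CPM in Ctrl (log2 0.48, SE 0.13, edgeR adjusted p = 0.0555), which DESeq2 called (adjusted p = 0.00893), as did edgeR under total-count scaling (adjusted p = 0.0307). Slc39a1, Slc39a10, Slc39a13 and the zinc exporter gene Slc30a1 had log2 fold changes of 0.30, −0.65, 0.35 and 0.20 (edgeR adjusted p = 0.307, 0.104, 0.336 and 0.792). Of 12 genes for metal buffers and pumps 10 were tested, none rose and 1 fell. Atp7a, the copper pump that loads the secretory pathway, fell to 5.72 and 10.1 CPM in cKO, against 15.96, 19.8 and 19.4 CPM in Ctrl (log2 −1.22, SE 0.28, edgeR adjusted p = 0.0412). The copper chaperone genes Ccs (−0.01) and Atox1 (0.34) missed the threshold (edgeR adjusted p = 0.964 and 0.381).

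Only 2 carriers of nucleosides and nucleobases reached the count threshold, Slc29a1 only in Ctrl lenses and Slc43a3 only in cKO lenses. Slc29a1 encodes ENT1, the equilibrative carrier of adenosine and other nucleosides. It was 4.13-fold lower, at 2.16 and 1.04 CPM in cKO, against 6.22, 6.30 and 7.33 CPM in Ctrl (log2 −2.05, SE 0.39, edgeR adjusted p = 0.0274; −2.67 without cKO 1 and −1.61 without cKO 2). Slc43a3, a purine nucleobase carrier, had 102 counts in cKO 1 and 0 in cKO 2, against 8, 5 and 19 counts in Ctrl. It did not pass (log2 2.19, edgeR adjusted p = 0.387). Without cKO 1 its sign turned, but the fitted −6.45 rests on a count of 0 and is no measure of size. Among 11 tested genes of nucleoside salvage 2 rose, namely the purine salvage enzymes Aprt (39.4 and 33.6 CPM in cKO, against 17.8, 15.2 and 15.8 CPM in Ctrl, log2 1.16, SE 0.16, edgeR adjusted p = 0.0135) and Hprt (log2 0.79, SE 0.18, edgeR adjusted p = 0.0388). None fell, and the kinase genes Adk (−0.03) and Uck1 (−0.13) missed the threshold (edgeR adjusted p = 0.938 and 0.662).

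Among 4 monocarboxylate carriers 1 fell. Slc16a1 encodes MCT1, a proton-linked carrier of lactate and pyruvate. Its level was 4.98 and 3.99 CPM in cKO, against 15.03, 9.13 and 13.9 CPM in Ctrl (log2 −1.50, SE 0.29, edgeR adjusted p = 0.0283). Slc16a3, the gene of the lactate exporter MCT4, was the most abundant of the class by FPKM. It had 30.1 and 30.7 CPM in cKO, against 52.1, 27.9 and 18.3 CPM in Ctrl, where the pools spread around the cKO values (log2 −0.11, edgeR adjusted p = 0.887). Slc16a12, a creatine carrier gene in which human variants are linked to juvenile cataract, had 12.8 and 31.8 CPM in cKO 1 and 2, on either side of its 26.7, 29.4 and 22.6 CPM in Ctrl (log2 −0.23, edgeR adjusted p = 0.715). The signs of both turned under total-count scaling. Of 6 tested partners of these carriers only Emb passed. It encodes embigin, a chaperone that takes monocarboxylate carriers to the cell surface, and rose to 275 and 374 CPM in cKO, against 122, 123 and 119 CPM in Ctrl (log2 1.42, SE 0.17, edgeR adjusted p = 0.00957). Bsg, the gene of the chaperone basigin (0.18), and the lactate dehydrogenase gene Ldha (0.31) missed the threshold (edgeR adjusted p = 0.421 and 0.473).

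Of the 8 carriers of amino acids, peptides and amines 2 rose and 2 fell. Both that fell reached the count threshold only in Ctrl lenses. Of the 5 that reached it in both groups, 2 rose and 0 fell. Slc6a6 (ENSMUSG00000030096) takes up taurine with sodium and chloride. It had 100.1 and 183 CPM in cKO 1 and 2, against 33.4, 38.8 and 27.9 CPM in Ctrl, 4.24-fold higher (log2 2.09, SE 0.28, edgeR adjusted p = 0.0134). The lowest cKO pool stood well above the highest Ctrl pool. Slc15a4, a histidine and peptide carrier of endolysosomes that is known from immune cells, was at 10.99 and 14.5 CPM in cKO, against 5.85, 5.27 and 5.72 CPM in Ctrl (log2 1.18, SE 0.21, edgeR adjusted p = 0.0243). It overlaps Glt1d1 in the annotation. The macrophage markers summed to 312 CPM in cKO 1 and 52.8 CPM in cKO 2, whereas Slc15a4 stood higher in cKO 2. Their part in its rise was not tested.

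Slc18a2 and Slc6a15 fell. Slc18a2 encodes VMAT2, which loads monoamines into vesicles. It had 14 and 0 counts in cKO 1 and 2, against 205, 250 and 210 counts in Ctrl (log2 −5.13, SE 0.97, edgeR adjusted p = 0.0263; −4.10 without cKO 2). Without cKO 1 the call was kept, but the fitted −10.88 then rests on a count of 0 and is no measure of size. Slc6a15, a carrier of neutral amino acids, was at 3.02 and 0.335 CPM in cKO, against 16.5, 13.3 and 19.3 CPM in Ctrl (log2 −3.29, SE 0.79, edgeR adjusted p = 0.044; −5.60 without cKO 1 and −2.43 without cKO 2). Both genes were lower in cKO 2 than in cKO 1. The peptide carrier gene Slc15a2 had the same order, 8.50 and 1.08 CPM in cKO, against 19.02, 16.9 and 29.6 CPM in Ctrl, but did not pass (log2 −2.20, SE 0.78, edgeR adjusted p = 0.113). edgeR called Slc15a2 once either cKO pool was left out (−4.35, adjusted p = 0.000326 without cKO 1, and −1.36, adjusted p = 0.0131 without cKO 2). DESeq2 (adjusted p = 0.0114) and limma on log2(FPKM + 1) and log2(FPKM + 0.1) (adjusted p = 0.0457 and 0.0499) called it as well. Slc66a2 did not pass either (0.57, edgeR adjusted p = 0.113).

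**Figure D3:**
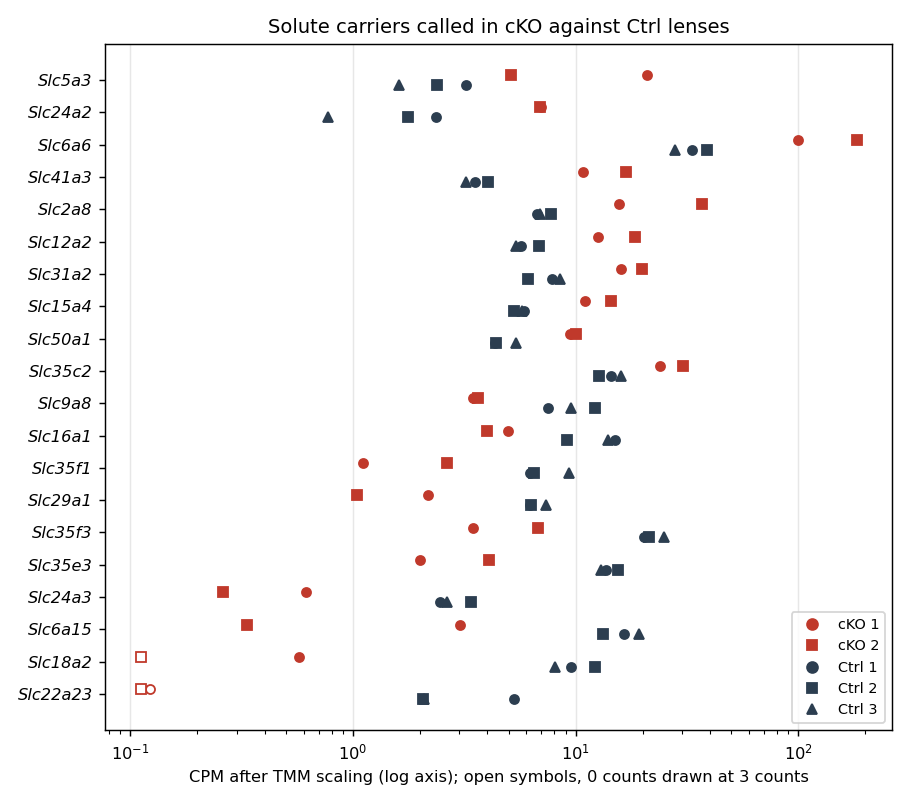
CPM after TMM scaling (log axis) of the 20 called carriers in each pooled library, red for cKO and dark blue for Ctrl. Open symbols are libraries with 0 counts, drawn at 3 counts. No gene has overlapping groups. Slc6a6 has the highest level (100.1 and 183 CPM in cKO) and Slc22a23 and Slc18a2 reach 0 counts in cKO.

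The Slc35 family feeds nucleotide sugars and related donors into the Golgi and endoplasmic reticulum, although several members have no settled substrate. Of 21 genes 1 rose and 3 fell, and of these Slc35f1 reached the count threshold only in Ctrl lenses. Over the 15 that reached the count threshold in both groups, 9 had a negative log2 fold change, with a median of −0.23 (−0.41 over all 21, of which 5 reached the threshold only in Ctrl). The 3 that fell have no settled substrate. Slc35f3 was at 3.47 and 6.78 CPM in cKO, against 20.3, 21.3 and 24.8 CPM in Ctrl (log2 −2.11, SE 0.32, edgeR adjusted p = 0.0162). Slc35e3 was at 2.00 and 4.10 CPM in cKO, against 13.6, 15.5 and 12.98 CPM in Ctrl (log2 −2.20, SE 0.35, edgeR adjusted p = 0.0178; −1.79 without cKO 1 and −2.81 without cKO 2). Slc35f1 was at 1.10 and 2.64 CPM in cKO, against 6.22, 6.49 and 9.37 CPM in Ctrl (log2 −1.97, SE 0.46, edgeR adjusted p = 0.0406; −1.49 without cKO 1 and −2.74 without cKO 2). In each of them cKO 1 was the lowest library. Under total-count scaling Slc35f1 lost its call (−1.73, edgeR adjusted p = 0.0678).

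Slc35c2, linked to GDP-fucose supply and Notch fucosylation in cultured cells, was the one that rose, at 23.97 and 30.4 CPM in cKO, against 14.4, 12.7 and 15.9 CPM in Ctrl (log2 0.92, SE 0.18, edgeR adjusted p = 0.0293). The most abundant members of the family did not pass edgeR's test. Slc35b2, which carries the sulfate donor PAPS into the Golgi, had 45.01 and 43.6 CPM in cKO, against 29.97, 31.97 and 33.4 CPM in Ctrl (log2 0.48, SE 0.13, edgeR adjusted p = 0.0617), but DESeq2 called it (adjusted p = 0.0159), as did edgeR under total-count scaling (adjusted p = 0.0412). Slc35b1 (0.52, adjusted p = 0.139) and Slc35a4 (−0.60, adjusted p = 0.052) also missed edgeR's threshold, with both cKO pools above every Ctrl pool for Slc35b1 and below for Slc35a4. DESeq2 called Slc35a4 (adjusted p = 0.0157), and total-count scaling in edgeR called Slc35b1 (adjusted p = 0.037). Of 9 enzymes that make the donors 1 rose and 1 fell, both in the sialic acid pathway. Cmas, which makes CMP-sialic acid, rose (log2 0.73, SE 0.17, edgeR adjusted p = 0.042), and Gne, the first enzyme of sialic acid synthesis, fell (−1.74, SE 0.35, edgeR adjusted p = 0.0293). Papss1 (0.29) and Gmppa (−0.15) missed the threshold (edgeR adjusted p = 0.592 and 0.705).

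In the remaining classes 1 gene passed, and it reached the count threshold only in Ctrl lenses. Slc22a23, an orphan member of the organic ion family, had 0 counts in both cKO libraries, against 114, 42 and 54 counts in Ctrl. Set against 3 counts per library, the most that a count of 0 allows, it was at least 26.8-fold lower (edgeR adjusted p = 0.0175), and at least 17.6-fold lower without Ctrl 1, which stood over 2-fold above the other Ctrl pools. Of the 5 organic ion carriers, the most abundant was Slc22a17, a receptor for lipocalin-2, with 12.99 and 23.4 CPM in cKO, against 41.1, 31.8 and 36.4 CPM in Ctrl (log2 −1.002, SE 0.28, edgeR adjusted p = 0.0621), which DESeq2 called (adjusted p = 0.00924). The carnitine carrier gene Slc22a5 (−0.75, adjusted p = 0.25) and Slco3a1 (−0.77, adjusted p = 0.376) did not pass edgeR's test. edgeR called 0 of the 11 vitamin and cofactor carriers, with 0 higher and 3 lower at an unadjusted p under 0.05, and DESeq2 called 1, lower. That 1 was Slc23a2, the sodium-coupled ascorbate carrier, at 1.31 and 1.64 CPM in cKO, against 3.71, 3.71 and 3.19 CPM in Ctrl (log2 −1.26, SE 0.35, edgeR adjusted p = 0.0622). The most abundant of these, Slc49a4 (0.43), Slc46a3 (−1.09) and the folate carrier gene Slc46a1 (−0.04), had edgeR adjusted p = 0.29, 0.124 and 0.942. Of 5 carriers of lipids, bile acids and acyl groups, led by the fatty acid transport gene Slc27a1 (0.38), the acetyl-CoA carrier gene Slc33a1 (0.31) and Slc10a3 (0.17), 0 passed in edgeR or DESeq2 and 0 had an unadjusted p under 0.05. The 2 unclassed genes, Slc4a1ap and Slc9a3r2, are named after carriers and are not carriers themselves, and edgeR gave them log2 fold changes of 0.08 and −0.76 (adjusted p = 0.9 and 0.364).

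A list of 27 carriers known from the lens had 22 among the 104 genes. Slc2a3, Slc4a3, Slc8a1 and Slc12a7 were among those below the count threshold. Of the 27, 4 were higher (Slc6a6, Slc5a3, Slc12a2 and Slc24a2) and 2 were lower (Slc16a1 and Slc29a1). Of all tested genes, 5.76% were higher and 7.73% were lower. Slc24a2 reached the count threshold only in cKO lenses and Slc29a1 only in Ctrl lenses. The median log2 fold change of the list was −0.27, against −0.06 for all tested genes.

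Promoters of the called carriers were read to show the sequence before their starts. RefSeq (GRCm38.p6) gave windows of 250 bases before to 50 after a start for 85 of the 104 genes, 117 windows in all, among them windows of 8 higher and 9 lower carriers. The motifs searched were CACGTG, a palindrome bound by MYC and by TFEB and its relatives, and GGAATG, which reads CATTCC on the other strand and is the core bound by TEAD factors, the DNA-binding partners of YAP1. They were chosen with the calls known. CACGTG stood in 16 of the 117 windows (13.7%) and in 7.15% of all 32851 windows, and GGAATG in 15 (12.8%) and in 14.7% of all. These sets are unlike, since the 32851 windows cover 27025 genes whether or not expressed in the lens. The carriers were chosen for a minimum count. A gene with several starts counts once per start in both sets. The windows below are those of the called genes with 1 annotated start that holds CACGTG, 2 higher (Slc31a2 and Slc41a3) and 2 lower (Slc16a1 and Slc35e3), so that the motif occurred before genes of either direction. Capitals mark the motifs, which start at base 1 after the start site in Slc31a2 (chr4:62286179-62286478, plus strand), 213 before it in Slc41a3 (chr6:90618996-90619295, plus strand, with GGAATG at base 8 after it), 200 before it in Slc16a1 (chr3:104638414-104638713, plus strand) and 80 before it in Slc35e3 (chr10:117746309-117746608, minus strand). A match is only a run of letters, and nothing is read here about binding.
Slc31a2: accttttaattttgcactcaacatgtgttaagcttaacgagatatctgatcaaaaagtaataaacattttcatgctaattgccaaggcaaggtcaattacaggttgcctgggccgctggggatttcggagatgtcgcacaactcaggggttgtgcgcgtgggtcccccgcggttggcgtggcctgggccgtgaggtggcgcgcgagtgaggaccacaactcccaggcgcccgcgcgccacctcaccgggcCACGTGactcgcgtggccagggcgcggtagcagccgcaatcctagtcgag
Slc41a3: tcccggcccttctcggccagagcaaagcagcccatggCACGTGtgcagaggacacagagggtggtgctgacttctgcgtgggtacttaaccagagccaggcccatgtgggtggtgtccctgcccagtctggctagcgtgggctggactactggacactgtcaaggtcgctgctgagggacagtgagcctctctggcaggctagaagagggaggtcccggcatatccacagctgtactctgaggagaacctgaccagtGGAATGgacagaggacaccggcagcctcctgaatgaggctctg
Slc16a1: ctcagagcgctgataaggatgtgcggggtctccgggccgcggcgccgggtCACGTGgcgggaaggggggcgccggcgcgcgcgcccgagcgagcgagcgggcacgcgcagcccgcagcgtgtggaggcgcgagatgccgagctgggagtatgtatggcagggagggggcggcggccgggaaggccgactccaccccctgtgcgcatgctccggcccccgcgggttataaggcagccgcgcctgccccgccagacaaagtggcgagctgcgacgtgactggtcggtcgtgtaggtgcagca
Slc35e3: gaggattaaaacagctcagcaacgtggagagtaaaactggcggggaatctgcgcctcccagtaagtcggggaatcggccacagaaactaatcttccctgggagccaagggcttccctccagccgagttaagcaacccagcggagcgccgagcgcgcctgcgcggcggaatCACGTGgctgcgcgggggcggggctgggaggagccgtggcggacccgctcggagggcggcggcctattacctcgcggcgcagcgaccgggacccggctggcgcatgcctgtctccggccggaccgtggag

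The cKO pools differed from each other more than the Ctrl pools did. In 19 carriers the cKO pools were over 3-fold apart, with cKO 1 higher in 11 and cKO 2 higher in 8, whereas the highest and the lowest of the 3 Ctrl pools were over 3-fold apart in 2 carriers. The median fold between the cKO pools was 1.79 for the carriers, against 1.46 for tested genes above 0 in both cKO pools. Between the highest and the lowest Ctrl pool it was 1.36, against 1.31 for tested genes above 0 in every Ctrl pool. The carrier medians kept genes with a count of 0, so the sets are unlike. In 21 carriers (20.2%) 1 cKO pool lay above and the other below every Ctrl pool, against 16.7% of all tested genes. Of the following 3, all but Slc4a7 were chosen after their values were seen. Slc36a4, an amino acid carrier, had 10.99 and 1.30 CPM in cKO 1 and 2, against 6.08, 7.37 and 6.64 CPM in Ctrl. The reverse order held for the bicarbonate carrier gene Slc4a7, with 0.490 and 5.21 CPM in cKO, against 2.74, 2.15 and 1.92 CPM in Ctrl. It held as well for Slc16a13, with 0.368 and 4.51 CPM in cKO, against 2.18, 1.22 and 1.77 CPM in Ctrl. For these 3 a mean over the cKO pools describes neither pool. Among the 10 carriers that rose, cKO 2 was above cKO 1 in 8, the exceptions being Slc24a2 and Slc5a3. Among the 10 that fell, cKO 2 was above in 4 and cKO 1 in 5, and Slc22a23 was at 0 in both.

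**Figure D4:**
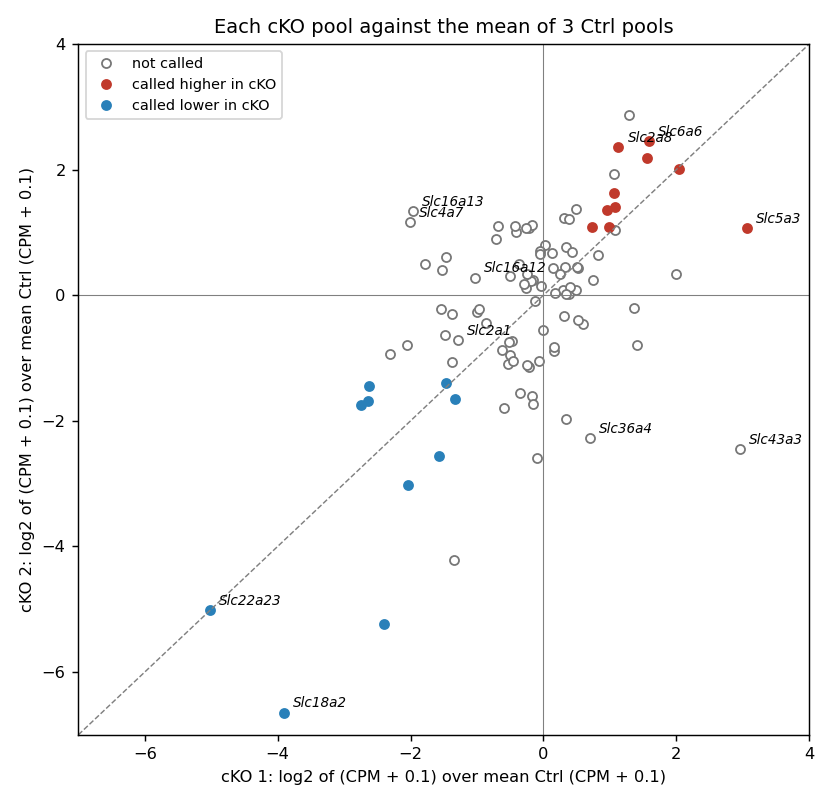
Each carrier's level in cKO 1 (x axis) and cKO 2 (y axis) as log2 of CPM + 0.1 over the mean of the Ctrl pools, with red and blue points for called genes and the dashed line where both pools are equal. Called genes lie in the upper right or lower left. Slc4a7 and Slc16a13 lie at the upper left and Slc36a4 and Slc43a3 at the lower right, where the pools took opposite sides.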

How the data were processed

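Per the file headers, the authors deposited 1 table with an expected count and an FPKM value per gene and library. RSEM, Trimmomatic 0.18.0 and GRCm39 appear in the submitters' processing notes. What each did, the aligner and strandedness, not given in the sources used here, remain unknown. The deposited expected counts were rounded to whole numbers (14 of the 104 carriers had fractional ones). The deposited FPKM, scaled to length and depth by the authors, served for levels between genes.

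The low-count filter was filterByExpr (minimum count 10, minimum total 15). After TMM scaling, cKO was tested against Ctrl with edgeR 4.0.16 (R 4.3.3), without covariates. Benjamini-Hochberg adjustment ran over all 11724 genes, and a gene was called at 0.05. Residual degrees of freedom were 3 and prior ones 3.26. SE came from the F statistic. The code was tested on simulated data. Alternatives used RLE or total-count scaling, other filters, a replicate block, DESeq2 1.42.0, limma 3.58.1 on log2(FPKM + 1) or log2(FPKM + 0.1), and each library left out.

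A count of 0 allows 3 counts, which is 0.112 to 0.146 CPM. Such floors cover counting error alone, because reads that carry no molecular identifier are not independent.

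Named were all called carriers, the 3 most abundant by Ctrl FPKM in each class, the listed lens carriers, and called and up to 2 abundant uncalled genes of the partner lists. Other tested kinase genes of the ion regulator list were named as well. The carriers, classes and lists were chosen with earlier results of these data known. The labels give no batch. Gene overlaps were read in RefSeq for GRCm38. A few genes that this rule names are not reported here.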

Additional observations from a re-analysis of the deposited data

How the results depend on the processing

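Of the 20 called carriers, 20 kept call and direction under RLE scaling, without the low-count filter, with at least 50 counts in 2 libraries, in DESeq2 and without cKO 2. Total-count scaling and the fit without cKO 1 each kept 19, and 15 and 17 were kept on log2(FPKM + 1) and log2(FPKM + 0.1), but 0 without any 1 Ctrl library. Counts below are higher and lower in cKO. All genes called numbered 675 and 906, against 1234 and 717 under total-count scaling, 1209 and 1521 in DESeq2, 1380 and 743 on log2(FPKM + 1) and 1402 and 835 on log2(FPKM + 0.1). DESeq2 called 15 and 16 carriers, and total-count scaling 15 and 9. Leaving out 1 library gave 6 to 2197 and 15 to 2964 genes, 0 to 29 and 0 to 30 carriers, 0 to 9 and 0 to 10 classes with a called carrier (5 and 6 otherwise) and 0 to 15 and 0 to 15 partner genes (6 and 5 otherwise). The lowest counts came without a Ctrl library, the highest with 1 cKO library, which is then assumed to vary like Ctrl. The threshold of 50 counts mattered less, with 10 and 14 calls at 20 counts and 10 and 8 at 100.

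The labels do not say whether replicate numbers pair the samples. The deviations of same-numbered libraries correlated at 0.11 and −0.08. With 2 cKO pools, their deviations from the group mean mirror each other, so these values cannot decide it. With the replicate number as a block, 68 and 107 genes, 1 and 0 carriers (Slc6a6), 1 and 0 classes and 0 and 1 partner genes were called, with 12 and 16 carriers at an unadjusted p under 0.05. The sign of Slc43a3 turned without cKO 1 (a fitted −6.45 that rests on a count of 0, against 3.17 without cKO 2). That of Slc4a7 turned to −2.19 without cKO 2 (1.19 without cKO 1). In both genes the pools disagree. The signs of 7 carriers turned under total-count scaling and of 35 under some alternative, none of them called. Both groups have too few pools for a test of outlying samples. Precision is limited by 2 and 3 pools and, for the rarest carriers, by counts near 50.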
